A study of Homo sapiens with 8 samples.

Results

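The genes described here are 39 endoplasmic reticulum (ER) chaperones and genes of the unfolded protein response. With earlier results of these data known, they were chosen by symbol out of 55765 gene symbols in the deposited tables. They fall into 12 chaperones and disulfide isomerases that are classic targets of the factor ATF6, 9 genes of ER-associated degradation of the kind that XBP1 drives, 4 J-domain co-chaperones, 5 sensors, factors and regulators, 5 genes of oxidative folding and quality control, and 4 genes of the translocon and export. Total RNA was sequenced from NB4 cells after 6, 12 and 24 h with 40 uM chlorprothixene and from untreated NB4 cells, and from Kasumi-1 cells after 6, 12 and 24 h with 40 uM chlorprothixene and from untreated Kasumi-1 cells. NB4 is a human acute promyelocytic leukaemia line with the PML-RARA fusion, Kasumi-1 is a human acute myeloid leukaemia line with the RUNX1-RUNX1T1 fusion, and chlorprothixene is a thioxanthene antipsychotic that blocks dopamine and other receptors. Each of the 8 conditions is 1 library, no vehicle is named in the labels, and the untreated libraries carry no time, so the drug and the time in culture cannot be told apart.

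The ER folds secreted and membrane proteins with the help of the Hsp70 chaperone HSPA5 (BiP), its J-domain partners and the protein disulfide isomerases. When unfolded proteins build up, 3 membrane sensors respond: ATF6 is cut to release a factor that drives chaperone genes, ERN1 (IRE1) splices XBP1 mRNA into a form that drives co-chaperone, degradation and export genes, and EIF2AK3 (PERK) slows translation and raises ATF4. Degradation genes take misfolded proteins out of the ER to the proteasome. In myeloid cells the same machinery folds granule enzymes such as myeloperoxidase.

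A few sequence elements carry much of this control: ERSE, which is CCAAT and CCACG with 9 free bases between them, ERSE-II, which is ATTGG and CCACG with 1 free base between them, and the element bound by spliced XBP1 (UPRE), searched as TGACGTGG. They were looked for on both strands, together with the ATF4-type element TGATGCAAT, in RefSeq promoter windows of build GRCh38.p14 that run from 250 bases before to 50 bases after a gene start. Windows were matched for 35 of the 39 genes. The sites below are shown because the gene lists compared here differ in how many windows hold them. They are written 5′ to 3′ along the strand that reads as the motif, with the fixed bases in capitals. The first 8 are ERSE sites of 7 genes and the next 4 are ERSE-II sites of 3 genes.
HSPA5: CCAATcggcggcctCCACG
HSP90B1: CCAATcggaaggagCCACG
HSP90B1: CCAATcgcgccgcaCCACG
CALR: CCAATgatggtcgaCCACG
CANX: CCAATcttcacactCCACG
CRELD2: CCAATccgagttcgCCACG
XBP1: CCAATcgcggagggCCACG
ERO1LB: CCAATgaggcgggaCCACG
HERPUD1: ATTGGgCCACG
HYOU1: ATTGGaCCACG
HYOU1: ATTGGaCCACG
SDF2L1: ATTGGtCCACG

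ERSE was present in 5 of 11 chaperone windows (HSPA5, HSP90B1 at 2 sites, CALR, CANX and CRELD2), in 0 of 7 degradation windows, in XBP1 and in ERO1LB. That is 7 of 35 windows of these genes (20%), against 22 of all 27305 RefSeq windows (0.0806%). ERSE-II was present in HERPUD1, SDF2L1 and, at 2 sites, HYOU1, against 0.0549% of all windows. UPRE was present in DNAJC10, TXNDC11 and HYOU1, where it overlaps the more distant ERSE-II site, against 0.795% of all windows. The ATF4-type element was in 0 of the 35, against 0.264% of all. At least 1 of the 4 motifs was in 7 of 11 chaperone windows and 1 of 7 degradation windows. The chaperones were listed as classic targets of ATF6 and the motifs searched are elements of this control. The shares are thus not independent of how the lists were made. A match is a description of these letters, and a window without one says nothing on whether a factor binds there.

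The 250 bases before the start of 4 genes are shown in full, each on its own strand. HSPA5 is shown as the central chaperone (chr9:125241344-125241593, minus strand), HERPUD1 as the degradation gene with a motif (chr16:56931892-56932141, plus strand), DNAJB9 as the gene with the smallest p in the response shared by both lines among those with a window (chr7:108569624-108569873, plus strand), and UGGT1 as the gene with the smallest p among those that were lower (chr2:128090950-128091199, plus strand). Capitals mark the fixed bases of ERSE in HSPA5 and of ERSE-II in HERPUD1. DNAJB9 and UGGT1 held none of the 4 motifs in their windows.
HSPA5: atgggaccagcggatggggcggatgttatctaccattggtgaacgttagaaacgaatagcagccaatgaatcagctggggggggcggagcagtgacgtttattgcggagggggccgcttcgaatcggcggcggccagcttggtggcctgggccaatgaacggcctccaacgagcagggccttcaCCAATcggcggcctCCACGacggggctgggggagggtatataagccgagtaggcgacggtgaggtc
HERPUD1: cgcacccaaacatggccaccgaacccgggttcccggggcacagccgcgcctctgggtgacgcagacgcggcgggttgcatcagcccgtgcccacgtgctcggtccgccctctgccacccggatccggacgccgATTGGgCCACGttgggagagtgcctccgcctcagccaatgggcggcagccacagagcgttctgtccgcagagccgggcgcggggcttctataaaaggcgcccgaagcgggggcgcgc
DNAJB9: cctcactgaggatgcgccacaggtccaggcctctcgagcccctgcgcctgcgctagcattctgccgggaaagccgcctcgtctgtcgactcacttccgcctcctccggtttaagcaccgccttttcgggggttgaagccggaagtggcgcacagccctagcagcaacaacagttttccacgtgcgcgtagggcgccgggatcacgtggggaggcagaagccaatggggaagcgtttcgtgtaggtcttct
UGGT1: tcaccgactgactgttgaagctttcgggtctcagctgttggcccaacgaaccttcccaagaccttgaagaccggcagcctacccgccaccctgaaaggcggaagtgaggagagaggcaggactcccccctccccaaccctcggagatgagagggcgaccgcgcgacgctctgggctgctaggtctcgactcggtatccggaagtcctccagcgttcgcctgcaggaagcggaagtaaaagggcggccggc

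Levels are TPM, an abundance per length of transcript scaled to the same total in each library, so that genes of a library can be set side by side and a level in one library is a share that moves with the other genes in it. Together the 39 genes took 1.18% to 1.49% of the TPM of a library. The mean level over the 8 libraries was at least 1000 TPM for 3 genes (CALR, HSP90B1 and P4HB), at least 100 TPM for 16, and under 10 TPM for 4 (ERN1, DERL3, ERO1LB and WFS1). WFS1, a calcium regulator of the ER membrane, stayed at or under 0.0619 TPM and was not tested. The other 38 were tested among 14650 genes whose mean reached 1 TPM. The cells carried the markers of their labelled lineage: 5 of 5 myeloid markers (MPO, SPI1, CD33, CEBPA, LYZ) were expressed, with a summed level of 2037 to 5298 TPM for NB4 and 9437 to 11736 TPM for Kasumi-1. The 5 lymphoid and plasma cell markers summed to 6.33 to 18.4 TPM and 4.22 to 4.71 TPM in these lines, with the plasma cell gene IGJ at 0. Of the epithelial markers KRT19 was at 0 throughout, and EPCAM stood at 15.7 to 20.6 TPM for NB4 and 17.5 to 29.7 TPM for Kasumi-1, above the myeloid marker CEBPA in each Kasumi-1 library (10.7 to 13.9 TPM).

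A change is the log2(TPM + 1) of a treated library minus that of the line's own untreated library, which understates the change of low genes. In NB4 most of the 38 genes were higher with the drug: 30, 31 and 29 of them at 6, 12 and 24 h, with median log2 changes of 0.29, 0.33 and 0.28. In Kasumi-1 the direction turned with time: 22, 22 and 15 were higher, with medians of 0.07, 0.13 and -0.24. The median of all genes tested lay between -0.08 and 0.01 in the 6 treated libraries. In these bulk libraries fewer cells of a kind and less RNA per cell cannot be told apart.

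**Figure D1:**
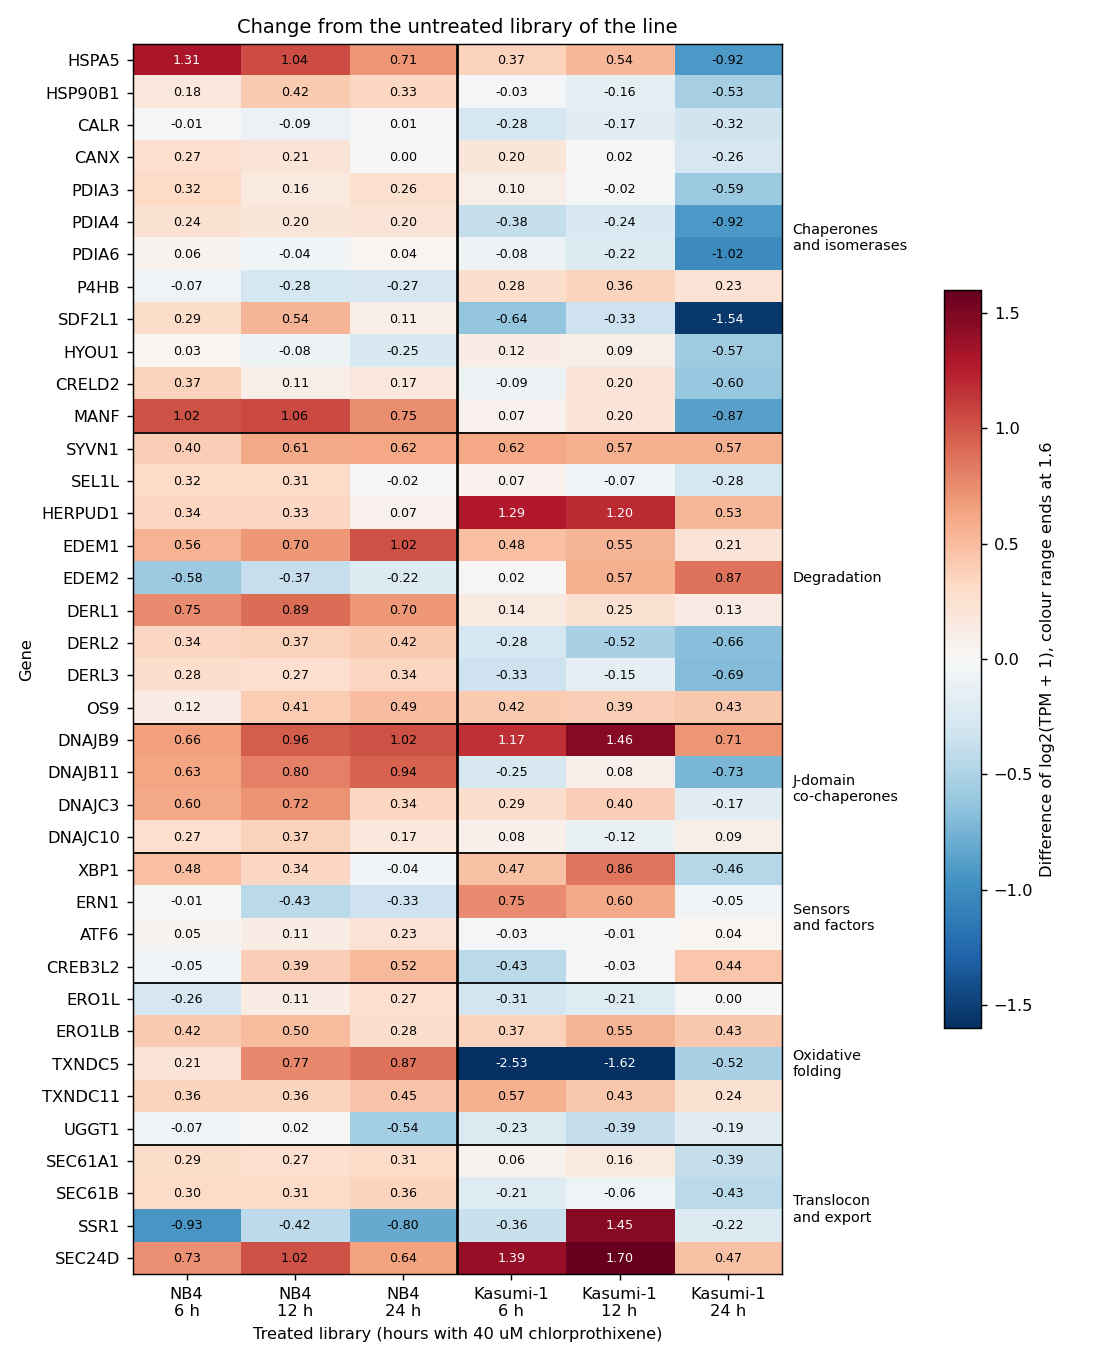
Difference of log2(TPM + 1) between each treated library (columns, hours with 40 uM chlorprothixene) and the untreated library of its line, for the 38 genes tested (rows, by role). Red is higher and blue lower with the drug, and each cell gives its value. The NB4 columns are mostly red, the last Kasumi-1 column is blue for 11 of 12 chaperones, and DNAJB9, SYVN1 and SEC24D are red in all 6 columns.

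The pattern shared by both lines was tested in a limma model with a term for the line, as the average of the 3 drug times less untreated. A p-value here reflects the likeness of 2 cell lines and says nothing of variation between cultures. By limma 0 of 38 genes passed at an adjusted p under 0.05 in either direction, where 0.0273% of all genes were higher and 0% were lower. At an unadjusted p under 0.05, 10 of 38 (26.3%) were higher and 0 were lower, against 9.3% and 11.1% of all genes. The 10 were DNAJB9, SEC24D, SYVN1, HERPUD1, EDEM1, DERL1, OS9, ERO1LB, TXNDC11 and DNAJC3. The count was 4 when untreated NB4 was left out, 5 for NB4 at 12 h, 6 for Kasumi-1 at 6 h, and 4 with no term for the line. Of the 38, 9 (23.7%) were above untreated in 6 of 6 treated libraries, against 12.9% of all genes, and 0 were below it in all 6, against 16.9%. Because the genes were chosen with earlier results of these data known, their shares beside those of all genes are not an independent test.

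**Figure D2:**
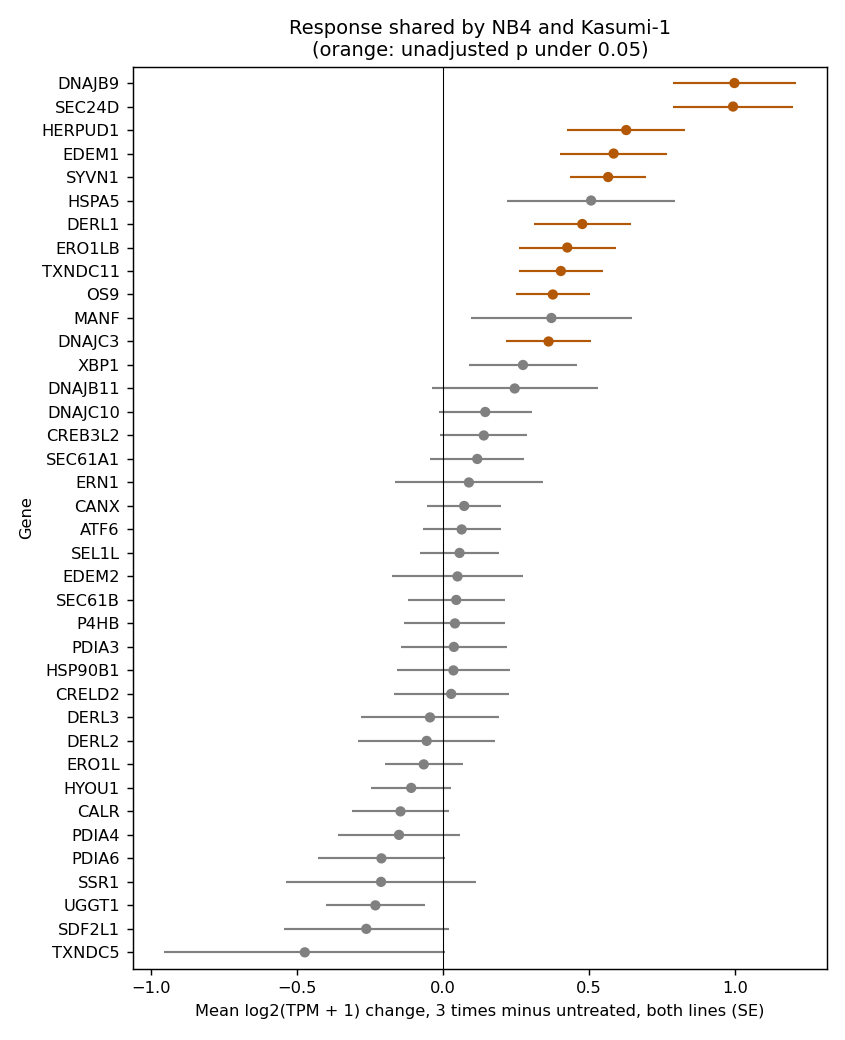
Mean log2(TPM + 1) change over 6, 12 and 24 h against untreated, with both lines in 1 fit (points, with SE from limma as bars), for the 38 genes tested, sorted by size. Orange marks the 10 genes at an unadjusted p under 0.05, all of them higher, and none of the 38 passed after adjustment over all genes.

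DNAJB9 and SEC24D had the largest changes in this fit. DNAJB9 (ERdj4), an ER J-domain co-chaperone that works with BiP and holds back IRE1 (chromosome 7, 108210012 to 108215294, plus strand, hg19), stood at 8.55, 14.1, 17.6 and 18.4 TPM in the NB4 libraries (untreated, 6, 12 and 24 h) and 9.17, 21.8, 26.9 and 15.7 TPM in the Kasumi-1 libraries. It was above untreated in 6 of 6 treated libraries, by at least 1.5-fold in each, and its levels in the untreated libraries were close to each other. Its shared log2 change was 0.997 (SE 0.21, adjusted p = 0.1004). SEC24D, a cargo adaptor of the COPII coat that carries proteins out of the ER (chromosome 4, 119643978 to 119759838, minus strand), stood at 29.3, 49.2, 60.5 and 46.2 TPM in the NB4 libraries and 31.1, 83.3, 103 and 43.4 TPM in the Kasumi-1 libraries. Every treated library was above both untreated ones, with the highest level at 12 h in each line and a lower one at 24 h. Its shared log2 change was 0.99 (SE 0.21, adjusted p = 0.0963), the smallest adjusted p of the 38. In all, 18 of the 39 genes overlap an expressed gene, 5 of them on the same strand, and the strandedness of the libraries was not stated in the labels. On the opposite strand to DNAJB9 lie THAP5 and PNPLA8. PNPLA8 stood at 17.8, 25.1, 26.5 and 28.2 TPM in the NB4 libraries and 8.44, 18.6, 21.1 and 16.1 TPM in the Kasumi-1 libraries, above untreated in 6 of 6 treated libraries as DNAJB9 was, and its part in the DNAJB9 values was not tested.

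**Figure D3:**
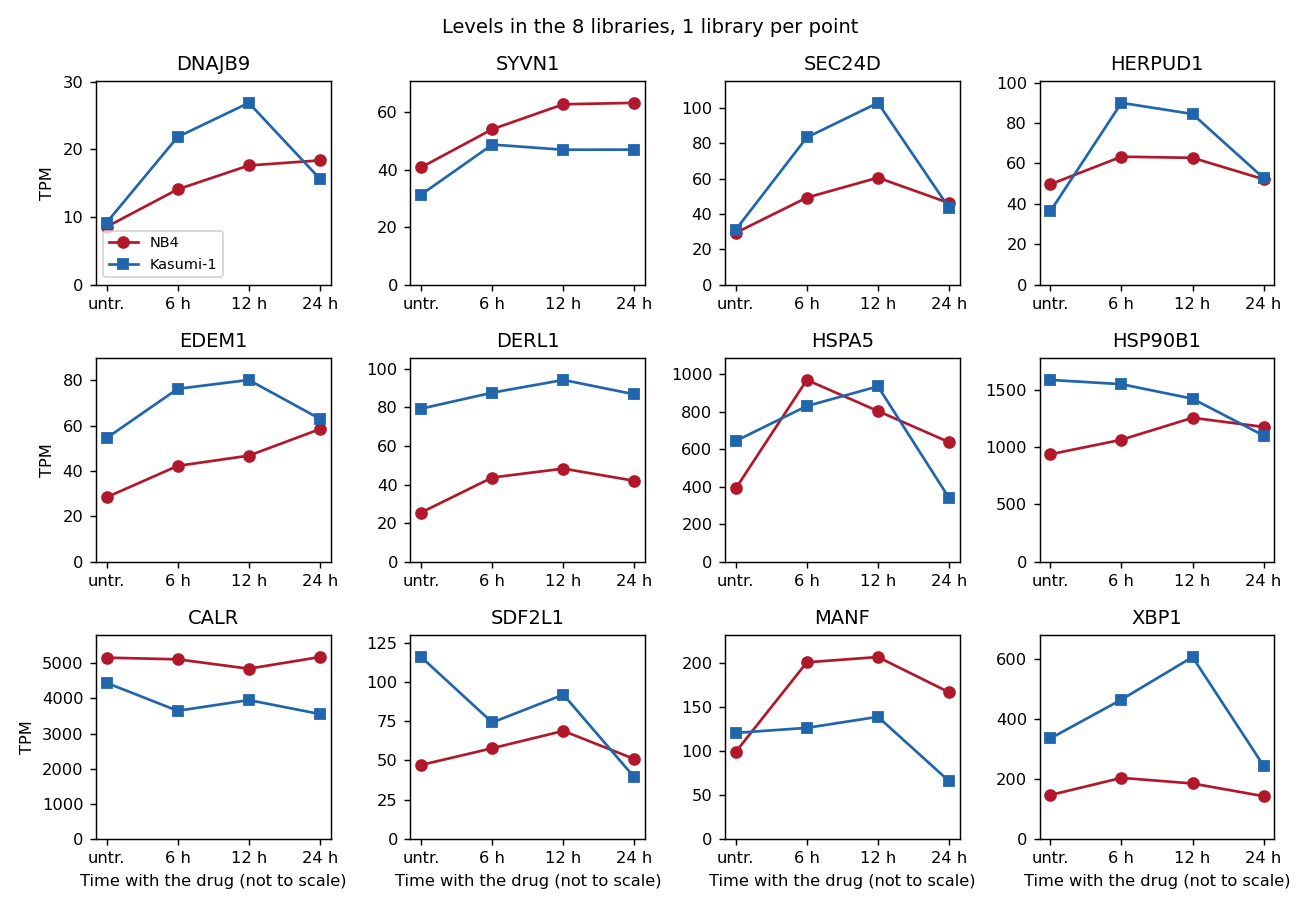
TPM of 12 of the genes in the untreated library and after 6, 12 and 24 h with the drug (x axis, steps not to scale), with NB4 as red circles and Kasumi-1 as blue squares and 1 library per point. DNAJB9, SYVN1, SEC24D, HERPUD1, EDEM1 and DERL1 lie above untreated at every time in both lines. HSPA5, HSP90B1, CALR, SDF2L1, MANF and XBP1 have their lowest Kasumi-1 level at 24 h.

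The chaperones and isomerases split by line and by time. HSPA5 (chromosome 9, 127997132 to 128003609, minus strand), the Hsp70 of the ER and the usual marker of its stress, stood at 390.4, 969, 803 and 638 TPM in the NB4 libraries and 644, 830.2, 935 and 340.2 TPM in the Kasumi-1 libraries. In NB4 it was highest at 6 h and stayed above untreated at all 3 times, with log2 changes of 1.31, 1.04 and 0.71. In Kasumi-1 it was above untreated at 6 and 12 h and below it at 24 h, with changes of 0.37, 0.54 and -0.92. MANF, a small secreted protein that binds BiP, stood at 98.7, 201, 207 and 167 TPM in the NB4 libraries and 120.3, 126, 139 and 65.5 TPM in the Kasumi-1 libraries. It was about level with untreated at 6 and 12 h in Kasumi-1, where its log2 changes were 0.07 and 0.20, and at least 1.5-fold above it at all 3 times in NB4. The fitted shared changes were 0.51 (SE 0.29, adjusted p = 0.362) for HSPA5 and 0.37 (SE 0.28, adjusted p = 0.476) for MANF. Without untreated NB4 they were -0.0052 and -0.20, and without untreated Kasumi-1 1.02 and 0.94.

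The lectin chaperones moved little in NB4. CALR, the lectin chaperone calreticulin, stood at 5161, 5114, 4847 and 5179 TPM in the NB4 libraries and 4443, 3647, 3953 and 3555 TPM in the Kasumi-1 libraries. Its partner CANX, membrane-bound calnexin, stood at 782, 943, 906 and 780.1 TPM in the NB4 libraries and 646, 740.2, 657 and 537 TPM in the Kasumi-1 libraries. The largest log2 change of either in NB4 was 0.27, for CANX at 6 h. HSP90B1, the Hsp90 of the ER (GRP94), stood at 936, 1063, 1254 and 1174 TPM in the NB4 libraries and 1584, 1547, 1420.3 and 1099 TPM in the Kasumi-1 libraries, so that its untreated levels were further apart than those at 24 h. It was above untreated at all 3 times in NB4 and below it at all 3 in Kasumi-1.

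Among the isomerases, P4HB, the founding protein disulfide isomerase, stood at 1544, 1471, 1271 and 1279 TPM in the NB4 libraries and 2859, 3473, 3657 and 3354 TPM in the Kasumi-1 libraries. It was below untreated at all 3 times in NB4 and above it at all 3 in Kasumi-1, and it was the only 1 of the 12 chaperones and isomerases that was higher in Kasumi-1 at 24 h. PDIA3, which folds glycoproteins with calnexin and calreticulin, stood at 534, 666, 596 and 639 TPM in the NB4 libraries and 266, 286, 262 and 176 TPM in the Kasumi-1 libraries. PDIA4, a larger isomerase with several thioredoxin domains, stood at 289, 342, 331 and 332 TPM in the NB4 libraries and 354, 272, 299 and 186 TPM in the Kasumi-1 libraries, above untreated at every time in NB4 and below it at every time in Kasumi-1. PDIA6, which also binds IRE1, stood at 472, 491, 459.5 and 484 TPM in the NB4 libraries and 736, 694, 631 and 363 TPM in the Kasumi-1 libraries. The Kasumi-1 library at 24 h was the lowest of its line for all 3 of these, and the NB4 libraries were level for PDIA6.

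Of the remaining chaperones, SDF2L1, a partner of ERdj3 and BiP, stood at 47.03, 57.7, 68.7 and 50.8 TPM in the NB4 libraries and 116, 74.1, 91.8 and 39.1 TPM in the Kasumi-1 libraries. It had the value furthest below untreated of the list, a log2 change of -1.54 in Kasumi-1 at 24 h, and was above untreated at all 3 times in NB4. HYOU1 (GRP170), which exchanges the nucleotide of BiP, stood at 259, 265, 245 and 218 TPM in the NB4 libraries and 256, 277, 273 and 172 TPM in the Kasumi-1 libraries. CRELD2, a secreted ER-resident protein with isomerase activity, stood at 25.8, 33.7, 27.98 and 29.1 TPM in the NB4 libraries and 66.8, 62.9, 77.1 and 43.6 TPM in the Kasumi-1 libraries. Both were also at their lowest of the Kasumi-1 libraries at 24 h.

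Across the list, 11 of 12 chaperones and isomerases were at their lowest of the 4 Kasumi-1 libraries at 24 h (91.7%), against 27.6% of all genes, and 7 of 12 were at least 1.5-fold below untreated. Of all 38 genes, 10 were at least 1.5-fold lower and 2 (EDEM2 and DNAJB9) higher in Kasumi-1 at 24 h, where 15.1% of all genes were lower and 13.5% higher. In NB4 at 24 h, 1 was lower and 9 were higher, where 11.1% of all genes were lower and 14.7% higher. The Kasumi-1 library at 24 h also held the largest share of mitochondrially encoded TPM, 17.1% against 5.04% to 10.6% in the other 7, which lowers every other TPM. With TPM rescaled without mitochondrial and the most abundant genes, the median of all genes in that library moved to 0.06, against -0.04 as deposited. In the rescaled values the median of the 11 chaperones left in was -0.47, against -0.60 for all 12 as deposited, and 10 of the 11 were still at their lowest. The counts at 1.5-fold are those of the TPM as deposited and were not repeated in the rescaled values. Of the 7 chaperones, PDIA3 (-0.593) and CRELD2 (-0.605) lay just past the cut, a log2 change of 0.585 in size.

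In the shared response 5 of 9 degradation genes were higher at an unadjusted p under 0.05, with a list median of 0.38. Of the chaperones 0 of 12 were, with a list median of 0.03. Calls were not particular to the degradation genes. They were made for 2 of 4 J-domain co-chaperones, 2 of 5 genes of oxidative folding, 1 of 4 translocon genes and 0 of 4 sensors and factors. Among further pathway genes, described below, 6 of 16 of folding and glycan trimming and 3 of 13 of degradation machinery were called. The share of all genes was 9.3%. These lists were made with earlier results of these data known, so the counts are descriptive and not an independent test of a list. SYVN1 (HRD1), the ubiquitin ligase at the core of the pathway (chromosome 11, 64889252 to 64902004, minus strand), stood at 40.8, 54.05, 62.7 and 63.2 TPM in the NB4 libraries and 31.3, 48.7, 46.9 and 46.9 TPM in the Kasumi-1 libraries. Its change was alike in both lines and held to 24 h, with log2 changes of 0.40, 0.61 and 0.62 for NB4 and 0.62, 0.57 and 0.57 for Kasumi-1. The shared change was 0.56 (SE 0.13, adjusted p = 0.106). FAU, a far more abundant ribosomal protein gene at 589 to 1075 TPM, overlaps SYVN1 on the same strand, and its reads can be mixed with those of SYVN1 where they overlap. FAU was below untreated in 5 of the 6 treated libraries, where SYVN1 was above it. MRPL49 overlaps SYVN1 on the opposite strand. It stood at 69.2, 63.2, 112 and 74.3 TPM in the NB4 libraries and 40.7, 18.5, 39.9 and 56.1 TPM in the Kasumi-1 libraries. The part of FAU and MRPL49 in the SYVN1 values was not tested.

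HERPUD1, a membrane protein that brings substrates to HRD1, stood at 49.7, 63.4, 62.8 and 52.2 TPM in the NB4 libraries and 36.3, 90.03, 84.5 and 52.8 TPM in the Kasumi-1 libraries. It was highest at 6 h in both lines, and at 24 h it was close to untreated in NB4, with a log2 change of 0.07. EDEM1, which trims mannose from misfolded glycoproteins, stood at 28.4, 42.2, 46.8 and 58.5 TPM in the NB4 libraries and 54.5, 76.2, 80.1 and 63.02 TPM in the Kasumi-1 libraries. In NB4 it was highest at 24 h and in Kasumi-1 at 12 h. OS9, a lectin that reads the trimmed sugar, stood at 162, 176, 216 and 228 TPM in the NB4 libraries and 184, 245, 241 and 247 TPM in the Kasumi-1 libraries. The shared changes were 0.63 (SE 0.20, adjusted p = 0.163) for HERPUD1, 0.58 (SE 0.18, adjusted p = 0.161) for EDEM1 and 0.38 (SE 0.13, adjusted p = 0.176) for OS9. The HERPUD1 value was 1.004 without untreated NB4 and 0.25 without untreated Kasumi-1.

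The 3 derlins, which help pull substrates back through the membrane, differed in direction. DERL1 stood at 25.5, 43.7, 48.3 and 41.96 TPM in the NB4 libraries and 79.4, 87.7, 94.3 and 86.8 TPM in the Kasumi-1 libraries, above untreated in 6 of 6 treated libraries. Its log2 changes were 0.75, 0.89 and 0.70 for NB4 and 0.14, 0.25 and 0.13 for Kasumi-1. The shared change of DERL1 was 0.48, and it was 0.17 without untreated NB4 and 0.78 without untreated Kasumi-1. DERL2 stood at 12.6, 16.1, 16.6 and 17.2 TPM in the NB4 libraries and 15.3, 12.3, 10.3 and 9.25 TPM in the Kasumi-1 libraries, above untreated at every time in NB4 and below it at every time in Kasumi-1. DERL3 stood at 3.96, 5.04, 4.98 and 5.30 TPM in the NB4 libraries and 8.93, 6.90, 7.98 and 5.15 TPM in the Kasumi-1 libraries, with the same signs as DERL2 at low levels.

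The other 2 degradation genes were not among the calls. SEL1L, the partner that holds HRD1 stable, stood at 36.6, 45.9, 45.5 and 36.1 TPM in the NB4 libraries and 50.1, 52.7, 47.7 and 41.2 TPM in the Kasumi-1 libraries, with a shared log2 change of 0.06 (SE 0.14). EDEM2, which starts mannose trimming, stood at 32.04, 21.05, 24.6 and 27.3 TPM in the NB4 libraries and 28.6, 29.03, 43.00 and 53.2 TPM in the Kasumi-1 libraries. It was below untreated at all 3 times in NB4 and above it at all 3 in Kasumi-1, opposite to DERL2 and DERL3. EDEM2 overlaps the expressed genes SNORD56 and MMP24-AS1 on its own strand.

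Set against each other, the median change of the chaperones was below that of the degradation genes in each of the 6 treated libraries. In NB4 the medians at 6, 12 and 24 h were 0.26, 0.18 and 0.14 for the chaperones and 0.34, 0.37 and 0.42 for the degradation genes, a difference of -0.08, -0.20 and -0.28. In Kasumi-1 they were 0.02, 0.00 and -0.60 for the chaperones and 0.14, 0.39 and 0.21 for the degradation genes, a difference of -0.13, -0.39 and -0.80. The 3 times of a line share 1 untreated library, and the difference was not tested. The lists overlapped in every library: in Kasumi-1 at 24 h the chaperones ran from -1.54 to 0.23 and the degradation genes from -0.69 to 0.87. Taken as means over the genes in place of medians, the difference in NB4 at 6 h was 0.05, where HSPA5 and MANF lie far above the other chaperones. By count, 10, 8 and 9 of 12 chaperones and 8, 8 and 7 of 9 degradation genes were above untreated in NB4, and 6, 6 and 1 of 12 and 7, 6 and 6 of 9 in Kasumi-1.

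**Figure D4:**
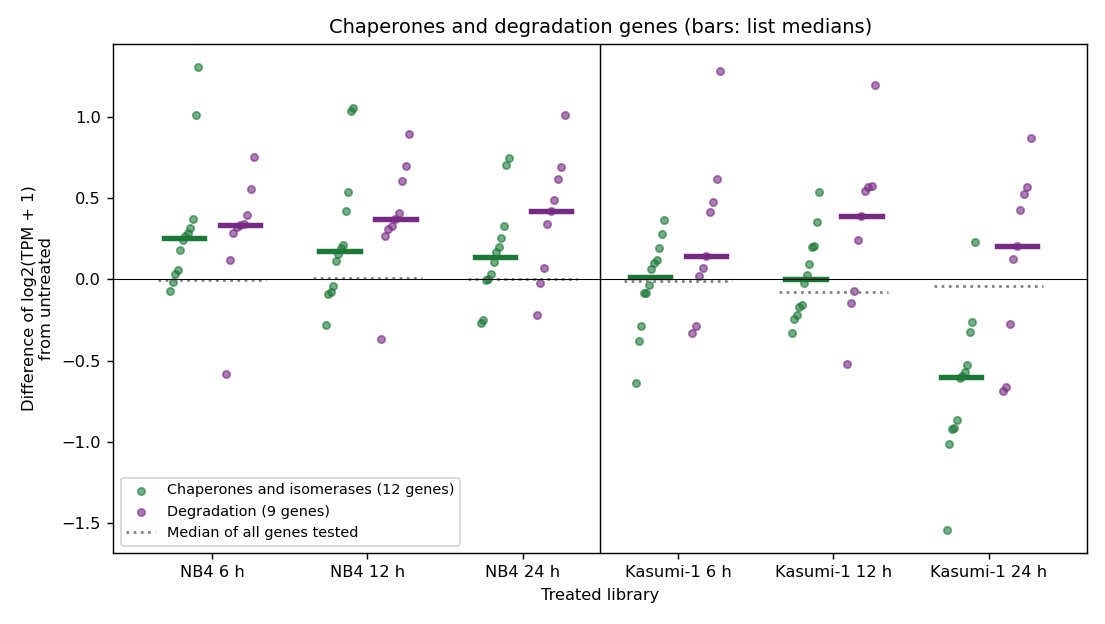
Change in log2(TPM + 1) against untreated cells of the line for the 12 chaperones and isomerases (green) and the 9 degradation genes (purple) in each treated library, with 1 point per gene, bars for list medians and dotted lines for the median of all genes tested. The green bar lies below the purple one in all 6 libraries, by 0.08 in NB4 at 6 h and by 0.80 in Kasumi-1 at 24 h, and the points of both lists overlap throughout.

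In the shared fit, the count of 5 degradation calls was also 5 when Kasumi-1 at 24 h was left out, 3 for NB4 at 12 h or untreated Kasumi-1, and 2 for untreated NB4. The chaperones had 1 call, HSPA5, without Kasumi-1 at 24 h and 2, HSPA5 and MANF, without untreated Kasumi-1, and 1 was lower without untreated NB4 or without NB4 at 24 h. Of the 10 genes at an unadjusted p under 0.05, 8 had a promoter window and 3 of those held a motif (HERPUD1, ERO1LB and TXNDC11). Of the other 29 genes, 27 had a window and 9 held a motif. The chaperones with ERSE (HSPA5, HSP90B1, CALR, CANX and CRELD2) had shared changes from -0.15 to 0.51.

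All 4 J-domain co-chaperones, which hand substrates to BiP, were above untreated at all 3 times in NB4, with list medians of 0.62, 0.76 and 0.64. In Kasumi-1 the medians were 0.18, 0.24 and -0.04. DNAJB11 (ERdj3), which binds unfolded chains, stood at 84.8, 132, 149 and 164 TPM in the NB4 libraries and 174, 146, 184 and 105 TPM in the Kasumi-1 libraries, so that NB4 came close to the level of untreated Kasumi-1 at 24 h. DNAJC3 (p58IPK), also an inhibitor of the kinase PERK, stood at 40.1, 61.4, 66.5 and 50.9 TPM in the NB4 libraries and 38.9, 47.6, 51.6 and 34.4 TPM in the Kasumi-1 libraries, with a shared change of 0.36 (SE 0.14, adjusted p = 0.226). The DNAJC3 value was 0.17 without untreated NB4 and 0.55 without untreated Kasumi-1. DNAJC10 (ERdj5), a reductase that opens disulfides before degradation, stood at 19.7, 24.04, 25.7 and 22.3 TPM in the NB4 libraries and 17.3, 18.4, 15.9 and 18.5 TPM in the Kasumi-1 libraries, with a shared change of 0.14 (SE 0.16).

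Of the 4 sensors and factors tested, 0 were called in the shared response. XBP1, whose mRNA is spliced by IRE1, stood at 146, 204, 185 and 142 TPM in the NB4 libraries and 335, 465, 607 and 244 TPM in the Kasumi-1 libraries. It peaked at 6 h in NB4 and at 12 h in Kasumi-1, and was below untreated at 24 h in Kasumi-1. Spliced and unspliced XBP1 mRNA are summed in a gene-level TPM, so these values do not measure splicing. ERN1 (IRE1) stood at 3.30, 3.27, 2.19 and 2.43 TPM in the NB4 libraries and 4.44, 8.18, 7.28 and 4.25 TPM in the Kasumi-1 libraries, at a mean coverage as low as 3.02 reads per base. ERN1 was above untreated at 6 and 12 h in Kasumi-1 and at or below it in NB4. ATF6 stood at 23.5, 24.3, 25.5 and 27.8 TPM in the NB4 libraries and 31.4, 30.7, 31.2 and 32.2 TPM in the Kasumi-1 libraries, within a log2 change of 0.23 in every library. CREB3L2, a membrane-bound factor of the ATF6 kind, stood at 24.9, 24.1, 32.98 and 36.1 TPM in the NB4 libraries and 46.2, 33.96, 45.2 and 63.00 TPM in the Kasumi-1 libraries and was highest at 24 h in both lines. The adjusted p of the 4 in the shared response ran from 0.434 to 0.875.

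In oxidative folding, ERO1LB and TXNDC11 were above untreated in 6 of 6 treated libraries. ERO1LB, an oxidase that recharges the isomerases, stood at 4.17, 5.92, 6.31 and 5.28 TPM in the NB4 libraries and 9.74, 12.9, 14.7 and 13.5 TPM in the Kasumi-1 libraries, with a shared change of 0.43 (SE 0.17, adjusted p = 0.219). ERO1L, its widely expressed relative, stood at 51.9, 43.01, 56.1 and 62.8 TPM in the NB4 libraries and 50.04, 40.2, 43.1 and 50.2 TPM in the Kasumi-1 libraries, with a shared change of -0.07 (SE 0.13). TXNDC11, a membrane thioredoxin-like protein that works with the EDEM proteins, stood at 22.7, 29.4, 29.4 and 31.4 TPM in the NB4 libraries and 27.5, 41.4, 37.4 and 32.7 TPM in the Kasumi-1 libraries, with a shared change of 0.40 (SE 0.14, adjusted p = 0.192). On the opposite strand, GPR137B overlaps ERO1LB and SNN overlaps TXNDC11, and both neighbours were above untreated in 6 of 6. GPR137B stood at 1.121, 2.63, 2.20 and 3.36 TPM in the NB4 libraries and 4.70, 12.1, 13.3 and 8.57 TPM in the Kasumi-1 libraries. SNN stood at 4.06, 12.7, 16.5 and 16.2 TPM in the NB4 libraries and 11.6, 22.4, 20.4 and 23.6 TPM in the Kasumi-1 libraries. Their part in the ERO1LB and TXNDC11 values was not tested. UGGT1, the folding sensor that puts glucose back on unfinished glycoproteins, stood at 45.04, 42.9, 45.6 and 30.7 TPM in the NB4 libraries and 61.8, 52.6, 47.1 and 54.3 TPM in the Kasumi-1 libraries. It was below untreated in 5 of 6 treated libraries, with a shared change of -0.23 (SE 0.17).

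TXNDC5, a disulfide isomerase with several thioredoxin domains, had the widest range of changes of the 38. It stood at 219.9, 254, 376 and 402 TPM in the NB4 libraries and 366, 62.5, 118 and 254 TPM in the Kasumi-1 libraries. The read-through gene BLOC1S5-TXNDC5, which shares its exons and strand, was listed at 141, 113, 0 and 0 TPM for NB4 and at 0, 159.6, 15.3 and 0 TPM for Kasumi-1. Summed, the pair stood at 361, 366, 376 and 402 TPM for NB4 and 366, 222, 133 and 254 TPM for Kasumi-1. The sum was level in NB4, where the values of TXNDC5 alone were not, and was below untreated at all 3 times in Kasumi-1 either way.

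Of the translocon genes, SEC61A1, the channel through which new chains enter the ER, stood at 99.9, 122, 121 and 124 TPM in the NB4 libraries and 134, 139, 149.9 and 102 TPM in the Kasumi-1 libraries. SEC61B, its small subunit, stood at 180.0, 222, 224 and 231 TPM in the NB4 libraries and 245, 212, 234 and 181 TPM in the Kasumi-1 libraries. Both were above untreated at all 3 times in NB4 by log2 changes of 0.27 to 0.36, and below it in Kasumi-1 at 24 h. SSR1, a subunit of the translocon-associated TRAP complex, stood at 30.6, 15.6, 22.7 and 17.2 TPM in the NB4 libraries and 50.7, 39.3, 140.2 and 43.5 TPM in the Kasumi-1 libraries. It was below untreated at every time in NB4, and in Kasumi-1 it was below at 6 and 24 h and 2.77-fold above at 12 h. That value rests on 1 library, and SSR1 overlaps the expressed gene RP11-69L16.5 on its own strand. Its mean coverage in the Kasumi-1 libraries was 107, 95.5, 148 and 95.3 reads per base, a smaller rise at 12 h than in TPM. The cause of that gap was not tested.

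Counted without a test as at least 1.5-fold at all 3 times, 6 of 38 genes were higher in NB4 (HSPA5, MANF, DERL1, DNAJB9, DNAJB11 and SEC24D) and 0 lower, against 5.6% and 3.37% of all genes. In Kasumi-1, 1 was higher (DNAJB9) and 0 lower, against 5.49% and 4.89% of all genes. With TPM rescaled without mitochondrial and the most abundant genes, the Kasumi-1 count was 4, with SYVN1, HERPUD1 and SEC24D added. The share of all genes was not counted in the rescaled values, so this 4 has no background beside it.

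The lines were also compared in level over all times. NB4 was higher than Kasumi-1 for 3 of 38 genes and lower for 9 at an adjusted p under 0.05 by limma, against 27.5% and 27.8% of all genes. In this fit the libraries of a line at different times serve as its repeats, so a p-value says nothing of variation between cultures. PDIA3 held 534 to 666 TPM in the NB4 libraries and 176 to 286 TPM in the Kasumi-1 libraries, a log2 difference of 1.32 (SE 0.16, adjusted p = 0.0004896), with no overlap. NB4 levels lay wholly above those of Kasumi-1 for 4 of 38 genes (10.53%) and wholly below for 9 (23.7%), against 22.8% and 24.5% of all genes. In the TPM as deposited, neither these counts nor those at the adjusted threshold exceed the shares of all genes. The genes are given as values. CANX and SYVN1 were also higher in NB4, by 0.41 (SE 0.11) and 0.34 (SE 0.11), with adjusted p of 0.0183 and 0.0378. Each fit that left out 1 treated library kept only PDIA3 as higher. With the rescaled TPM, 2 were higher and 16 lower, where 3578 and 4679 of 15111 genes were. In that setting the lower count exceeded the share of all genes and the higher count did not.

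The genes lower in NB4 came from each list but the J-domain co-chaperones. P4HB held 1271 to 1544 TPM in the NB4 libraries and 2859 to 3657 TPM in the Kasumi-1 libraries, a log2 difference of -1.26 (SE 0.15, adjusted p = 0.000474). XBP1 held 142 to 204 TPM in the NB4 libraries and 244 to 607 TPM in the Kasumi-1 libraries, a difference of -1.22 (SE 0.16, adjusted p = 0.000745). DERL1 held 25.5 to 48.3 TPM and 79.4 to 94.3 TPM in these lines, a difference of -1.14 (SE 0.14, adjusted p = 0.000608). The levels of these 3 did not overlap between the lines. SSR1 (-1.46), ERO1LB (-1.09), CRELD2 (-1.05), ERN1 (-0.86), EDEM1 (-0.66) and CREB3L2 (-0.64) completed the 9, with adjusted p from 0.000767 to 0.01399. EDEM1 and CREB3L2 overlapped between the lines and the other 4 did not.

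Whether the change with the drug differed between the lines was tested by taking the 3 times in each line for repeats. By limma 0 of 38 genes passed at an adjusted p under 0.05, where 0.0887% of all genes were higher and 0.041% lower as NB4 minus Kasumi-1. At an unadjusted p under 0.05, 4 were higher and 0 lower, against 6.37% and 4.22% of all genes, and with the rescaled TPM 3 were higher and 1 lower. The 4 were DNAJB11, with 1.09 (SE 0.41, adjusted p = 0.413), DERL2, with 0.87 (SE 0.31, adjusted p = 0.403), DERL1, with 0.61 (SE 0.23, adjusted p = 0.413), and TXNDC5, with 2.17 (SE 0.91, adjusted p = 0.459). With the read-through gene added to TXNDC5, an alternative chosen after seeing the data, its difference was 0.97. HSPA5, at 1.02 (SE 0.74), and MANF, at 1.14 (SE 0.54), had differences about as large as that of DNAJB11 and wider errors (0.57 for HSPA5 without Kasumi-1 at 24 h), and in both the change at 24 h in Kasumi-1 had the opposite sign to those at 6 and 12 h. The count was 1 without NB4 at 12 h, 2 without NB4 at 24 h, and 7 when Kasumi-1 at 12 h or at 24 h was left out.

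Beyond the 39 genes, 61 other genes of these pathways were tested, in 4 lists of sensor cleavage and the PERK arm, degradation machinery, folding and glycan trimming, and translocation, glycosylation and export. At an unadjusted p under 0.05 in the shared response 13 of 61 (21.3%) were higher and 0 lower, against 9.3% and 11.1% of all genes, and 0 passed after adjustment. Of the 61, 14 were above untreated in 6 of 6 treated libraries and 6 below it, where 12.9% and 16.9% of all genes were. By list the 13 were 3 of 10, 3 of 13, 6 of 16 and 1 of 22. These lists, too, were chosen with earlier results of these data known. VIMP (SELENOS), which ties the derlins to the ATPase p97, stood at 68.9, 121, 123 and 132 TPM in the NB4 libraries and 64.1, 135, 125 and 94.3 TPM in the Kasumi-1 libraries, with a shared change of 0.85 (SE 0.15, adjusted p = 0.0815). EIF2AK3 (PERK), the third sensor, stood at 7.41, 16.9, 17.7 and 17.1 TPM in the NB4 libraries and 14.8, 27.3, 25.6 and 19.03 TPM in the Kasumi-1 libraries, with a shared change of 0.88 (SE 0.19, adjusted p = 0.1005). Both were above untreated in 6 of 6 treated libraries.

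PPP1R15A (GADD34), which reverses the translation block of PERK, stood at 44.8, 81.6, 105 and 125 TPM in the NB4 libraries and 45.8, 139, 146 and 66.3 TPM in the Kasumi-1 libraries, with a shared change of 1.21 (SE 0.30, adjusted p = 0.117). ATF4, the factor that this block favours, stood at 549, 809.9, 637 and 626 TPM in the NB4 libraries and 579.8, 1072, 892 and 698 TPM in the Kasumi-1 libraries, with a shared change of 0.46 (SE 0.14, adjusted p = 0.154). Both were above untreated in all 6 treated libraries, and ATF4 peaked at 6 h in each line. ATF3 and CHAC1, stress-induced genes downstream of ATF4 on the same list, went the other way and are named after their values were seen. ATF3 stood at 22.1, 20.02, 14.1 and 17.98 TPM in the NB4 libraries and 29.98, 22.3, 19.4 and 10.8 TPM in the Kasumi-1 libraries, below untreated in 6 of 6, with a shared change of -0.57 (SE 0.24, adjusted p = 0.2501). CHAC1 stood at 37.2, 26.2, 17.9 and 8.94 TPM in the Kasumi-1 libraries, each below the one before, and stayed at or under 0.341 TPM in NB4. TRIB3, on this list too and likewise named after its values were seen, did not follow them. It stood at 167.1, 167.2, 202 and 206 TPM in the NB4 libraries and 70.6, 333, 117 and 58.4 TPM in the Kasumi-1 libraries. Its shared change was 0.54 (SE 0.47, adjusted p = 0.543). A further 6 named genes were also above untreated in 6 of 6. The retrieval receptor KDELR2 had a shared change of 0.54 (SE 0.14, adjusted p = 0.119), the Hsp70-like HSPA13 one of 0.64 (SE 0.15, adjusted p = 0.111), and the COPII adaptor SEC24A one of 0.50 (SE 0.15, adjusted p = 0.1501). CRELD1, a relative of CRELD2, had a shared change of 0.57 (SE 0.17, adjusted p = 0.152), EDEM3, a mannosidase of the EDEM family, one of 0.45 (SE 0.15, adjusted p = 0.172), and ERP44, which retains ERO1 in the ER, one of 0.39 (SE 0.13, adjusted p = 0.173).

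In the difference between the lines, 5 of the 61 had a positive and 2 a negative value at an unadjusted p under 0.05, where 6.37% and 4.22% of all genes had, and 0 passed after adjustment. These counts lie near the shares of all genes, and the genes are given as values. DDIT3 (CHOP), a factor of prolonged ER stress, stood at 62.7, 48.1, 50.9 and 40.6 TPM in the NB4 libraries and 26.9, 56.7, 60.5 and 39.7 TPM in the Kasumi-1 libraries. It was below untreated at every time in NB4 and above it at every time in Kasumi-1, a difference of -1.34 (SE 0.37, adjusted p = 0.315). VCP, the ATPase p97 that extracts substrates for the proteasome, stood at 540.5, 534, 537 and 511 TPM in the NB4 libraries and 526, 325, 355 and 286 TPM in the Kasumi-1 libraries, level in NB4 and below untreated in Kasumi-1, a difference of 0.67 (SE 0.24, adjusted p = 0.3996). Its cofactor NPLOC4 had a difference of 0.90 (SE 0.25, adjusted p = 0.315), the signal peptidase subunit SPCS3 one of 0.61 (SE 0.23, adjusted p = 0.413), and the J-domain protein DNAJC1 one of -0.78 (SE 0.27, adjusted p = 0.397).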

How the data were processed

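Each library came with a deposited table of genes holding coverage, FPKM and TPM per the file headers. Per the submitters' processing notes, HISAT2 and StringTie were used with build hg19; versions, options and strandedness were not found in those notes. The deposited TPM values sum to the same total in each library, the deposited FPKM values were an alternative, and the deposited coverage signal (mean reads per base, 3.02 for ERN1 to 11671 for CALR among the genes tested) was used only as a measure of depth. Read counts are not in these values, so no counting interval was computed.

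TPM was summed by symbol (301 symbols had several rows). Genes whose mean reached 1 TPM were tested on log2(TPM + 1) with limma 3.58.1 in R 4.3.3, two-sided, with an intensity trend and Benjamini-Hochberg adjustment over 14650 genes. The shared response and the line difference came from 1 fit of line and time (3 residual degrees of freedom), and the response difference from line, treatment and their product (4 residual degrees of freedom). The fits were tested on simulated data. Within a line nothing was tested. The rescaled TPM leaves out 57 genes, the mitochondrial and most abundant ones. Other tools were Python 3.11.15, pandas 2.3.3, numpy 2.4.6 and matplotlib 3.10.9.

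The members and gene lists were chosen with earlier results of these data known. All 39 are accounted for. Of the other pathway genes, up to 10 with the smallest unadjusted p in the shared response and up to 5 in the response difference were named. Promoter windows and motif sites are from RefSeq (GRCh38.p14), matched by gene symbol, and gene positions are those of the deposited tables. No library was identical to another. The erythroid markers are not reported here.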

Additional observations from a re-analysis of the deposited data

Results flagged for a closer look

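For 9 of the 38 members all 3 treated libraries of one line lay on one side of untreated and all 3 of the other line on the other side (23.7%, against 11.6% of all genes). The 3 times of a line share 1 untreated library. None of these differences passed the adjusted threshold in limma, with adjusted p from 0.403 to 0.591. Higher in NB4 and lower in Kasumi-1 were HSP90B1, with a difference (NB4 change minus Kasumi-1 change, log2) of 0.55, PDIA4, with 0.728, SDF2L1, with 1.15, DERL2, with 0.867, DERL3, with 0.688, SEC61B, with 0.556, and TXNDC5, with 2.17. Lower in NB4 and higher in Kasumi-1 were P4HB, with a difference of -0.496, and EDEM2, with -0.881. The part in these differences of the read-through gene of TXNDC5, apart from the values given with TXNDC5, and of the genes that overlap EDEM2 was not tested.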

How the results depend on the processing

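In the shared response 0 members passed the adjusted threshold under any alternative run. The 10 higher at an unadjusted p under 0.05 became 4 with no term for the line, where 304 of 14650 genes were higher. Most fits that left out 1 library gave fewer higher members, and some gave members that were lower. In the line difference, the 3 higher became 1 with no filter on low values and 1 to 6 when 1 library was left out, and the 9 lower became 16 in the rescaled TPM. In the response difference, the 4 higher at an unadjusted p under 0.05 became 1 to 7 when 1 treated library was left out, and the 0 lower became 1 with no filter, 1 in the rescaled TPM, and 0 to 2 when 1 library was left out. In Kasumi-1 the 1 member at least 1.5-fold higher at all 3 times became 3 in FPKM and 4 in the rescaled TPM, settings in which the share of all genes was not counted. The chaperone minus degradation difference reversed in NB4 at 6 h with means in place of medians (0.0531, against -0.0801), and kept its sign in every other library and setting. The cause of these shifts was not tested. Of the single genes whose fitted values are given, 4 shared changes reversed when an untreated library was left out. Over the 8 fits that each leave out 1 library HSPA5 ran from -0.0052 to 1.018, MANF from -0.199 to 0.9404, SEL1L from -0.0905 to 0.204 (each lowest without untreated NB4 and highest without untreated Kasumi-1), and ERO1L from -0.172 to 0.0400 (likewise). The shared change of VIMP passed when treated times counted as repeats (adjusted p = 0.04362), and over the named genes and alternatives 28 values of the line difference lost the adjusted threshold while 151 did not. Leaving out untreated NB4 gave EDEM3 0.262 and DNAJC10 0.0191. Leaving out Kasumi-1 at 12 h gave UGGT1 -0.154, and leaving out NB4 at 24 h gave it -0.141. The response difference could not be fitted without an untreated library. No pairing by replicate number was possible because each condition has 1 library. The line term of the shared fit sets treated against untreated libraries within each line. The 1 library per condition limits every value, and 18 of 39 members overlap an expressed gene, 5 of them on their own strand.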
